A study of Mus musculus with 14 samples.

Results

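The mRNA levels of 39 cell cycle genes were read in bulk RNA sequencing of whole kidneys from 14 female mice. Cell division, and the cell types that held these mRNAs, were not measured. The genes were listed by name, with earlier results of these data known. Their symbols were matched through the GENCODE mouse annotation to 39 of the 56980 gene IDs in the counts. Of these, 12 act at the G1/S transition and in DNA replication (Ccne1, Ccne2, E2f1, Mcm2 to Mcm7, Pcna, Tyms and Rrm2). The other 27 act in late S phase, G2 and mitosis and are called the G2/M genes here (Ccna2, Ccnb1, Ccnb2, Cdk1, Foxm1, Plk1, Aurka, Aurkb, Melk, Ttk, Bub1, Bub1b, Cdc20, Ube2c, Birc5, Cenpe, Cenpf, Kif11, Kif20a, Kif23, Tpx2, Nusap1, Prc1, Ect2, Hmmr, Mki67 and Top2a). All 39 passed the filter on low counts and were among the 22339 genes tested.

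The mice were wild-type CD-1, an outbred stock, and their kidneys were taken at 18 weeks of age. Kidneys came from 4 mice born at term without diabetes (T-ND), 4 born at term and given streptozotocin (STZ), a toxin that destroys insulin-producing beta cells (T-D), 3 born preterm without diabetes (PT-ND), and 3 born preterm and given STZ (PT-D). Preterm pups were also delivered by Caesarean section and raised by foster mothers that were given acepromazine, so preterm birth stands for all of these. Some of the study's PT-D mice had STZ a second time, and which libraries these are is not given in the labels. Each library is 1 mouse. Some of the study's mice were littermates across groups, and which libraries are is not given.

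A cell that divides passes from G1 through DNA replication in S phase and through G2 to mitosis. Cyclin E and the E2F transcription factors open S phase, the MCM helicase unwinds DNA, and PCNA clamps the polymerase to it. Cyclin B with CDK1 then starts mitosis, in which kinesins and kinases build the spindle and separate the chromosomes. The mRNAs of the late genes rise in G2 and fall again in G1. Most of them are repressed in resting cells by the DREAM complex, which binds the cell cycle genes homology region (CHR) in their promoters, and are switched on by B-MYB and FOXM1, with NF-Y at CCAAT boxes. G1/S genes are better known for E2F sites. Few cells of the healthy adult kidney divide, and tubule cells re-enter the cycle after injury.

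The promoters of the genes carry these elements to different degrees. The window from 250 bases before to 50 bases after the start of each canonical transcript was searched on both strands for 3 motifs. The CHR was TTTGAA, or alternatively TTTAAA, which is its own reverse complement, and the NF-Y box was CCAAT. The E2F core was TTGGCGC, with the variants spelled TTCCCGC and next TTGCCGC and last TTCGCGC. An E2F core and a CCAAT box can overlap. The sequences below, all from GRCm39 and GENCODE release 39, lie directly before the start and were chosen as examples, with the matches in capitals. In these stretches Ccnb2 (cyclin B2, chr9:70328875-70329014, minus strand) and Aurkb (a mitotic kinase, chr11:68936337-68936466, plus strand) hold a CHR upstream of 2 CCAAT boxes. Ccnb2 also has a CCAAT box from base 18 and a CHR from base 43 after the start, which are not printed. The order varied among promoters. The CHR lay upstream of the CCAAT boxes in Bub1 and Cdc20, and downstream of them in Kif23, Prc1, Hmmr and Kif11. Mcm5 (chr8:75835970-75836139, plus strand) and Mcm4 (chr16:15455265-15455354, minus strand), both helicase subunits, hold at least 1 E2F core and 1 CCAAT box.
Ccnb2: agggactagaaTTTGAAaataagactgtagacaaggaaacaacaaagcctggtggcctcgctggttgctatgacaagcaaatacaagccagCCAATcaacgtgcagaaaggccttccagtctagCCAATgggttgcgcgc
Aurkb: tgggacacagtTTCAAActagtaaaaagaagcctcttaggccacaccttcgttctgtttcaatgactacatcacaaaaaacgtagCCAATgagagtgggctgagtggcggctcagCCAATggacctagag
Mcm5: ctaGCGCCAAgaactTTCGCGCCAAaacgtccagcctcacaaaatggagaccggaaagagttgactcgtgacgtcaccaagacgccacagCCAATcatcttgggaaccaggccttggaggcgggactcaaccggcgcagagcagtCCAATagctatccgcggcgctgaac
Mcm4: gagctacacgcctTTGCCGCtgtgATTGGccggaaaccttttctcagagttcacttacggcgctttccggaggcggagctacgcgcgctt

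A CHR was found in 18 of the 27 G2/M promoters (66.7%), in 4 of the 12 G1/S promoters (33.3%) and in 23.5% of the 16146 promoters searched. CCAAT boxes were found in 20 G2/M promoters (74.1%), 7 G1/S promoters (58.3%) and 38.8% of all promoters. Both together stood in 15 G2/M promoters (55.6%), against 9.51% of all. The E2F core went the other way, with 7 G1/S promoters (58.3%), 4 G2/M promoters (14.8%) and 13.7% of all. No match to any of the 3 was found for Aurka, Ccna2, Foxm1, Nusap1, Mcm7 and Tyms. These matches are letters in a window and do not show that a factor binds there.

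**Figure D1:**
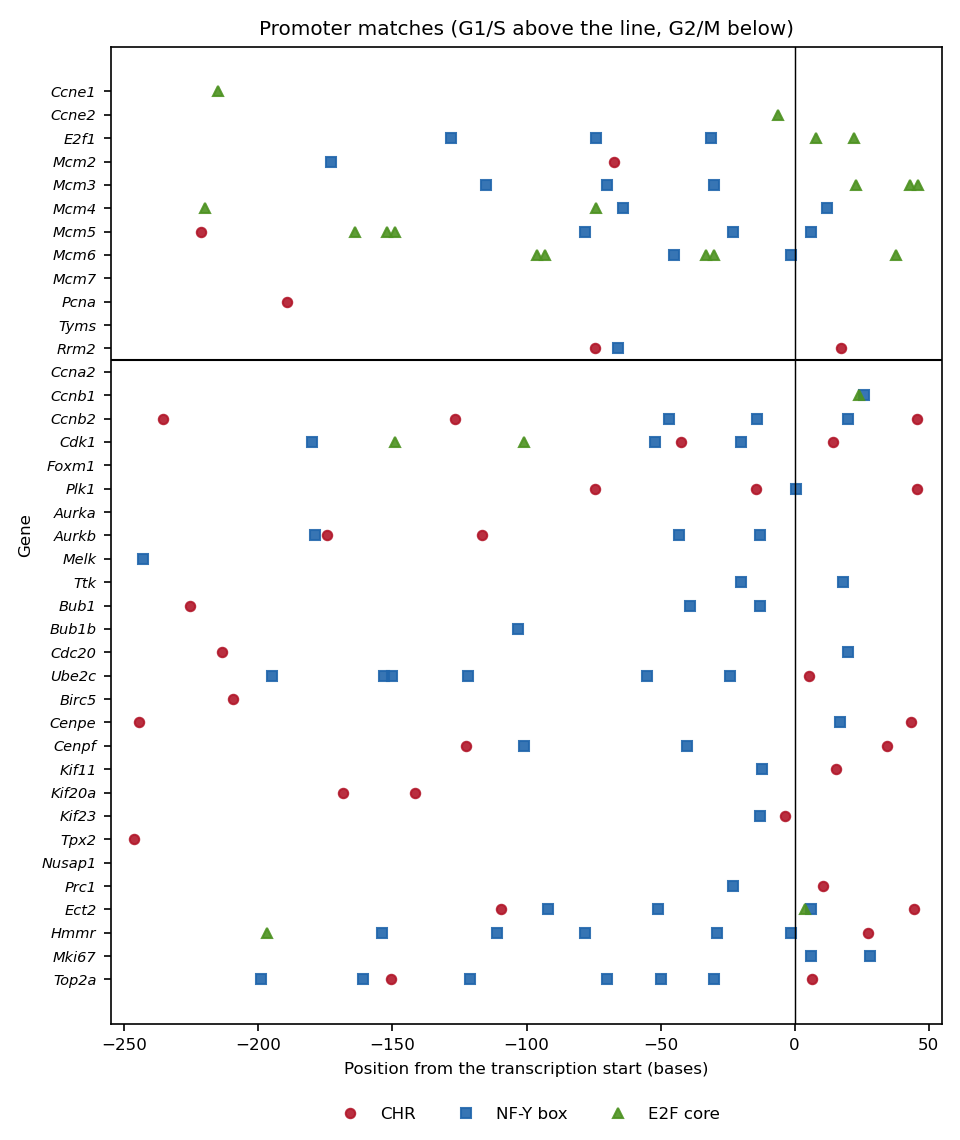
Matches to the CHR, the CCAAT box (the NF-Y box) and the E2F core in the promoters of the 39 genes, with the distance from the transcript start in bases on the horizontal axis, 1 gene per line and 1 point per match. CHR matches are seen in 18 of 27 G2/M and 4 of 12 G1/S promoters, and E2F cores in 4 and 7.

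The libraries held 16697246 to 28673176 counts on genes, with a median of 18765582. Mitochondrially encoded genes took 8.53% to 16.9% of the counts. The proximal tubule markers were abundant in every library, with summed levels of 7057 to 27220 CPM, that is, counts scaled to the library size, and those of the adrenal gland lay between 2.57 and 5.73 CPM, with Cyp11b1 and Cyp11b2 at 0 counts throughout. The names of 5 libraries end in the letter a. These are 2 T-ND libraries (replicates 1 and 2) and 1 of each other group (replicate 1 of T-D and of PT-D, replicate 2 of PT-ND).

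The genes differed widely in level. Levels are given in CPM, scaled with TMM, and where genes are compared with each other, in CPM per kilobase of exon. Per kilobase, Pcna had the highest mean (7.15), followed by Mcm6 (3.18), Mcm7 (2.99), Rrm2 (2.50) and Tyms (2.25), so that the top 5 were all G1/S genes. Cdc20 (1.50) and Ube2c (1.45), partners of the anaphase promoting complex, led the G2/M genes, and Ttk, a checkpoint kinase, was lowest (0.0458). In 29 of the genes every library had more than 3 counts, the level taken as the limit of detection, and in 10 at least 1 library had 3 or fewer. Named pseudogenes exist for Pcna, Tyms, Ccnb1 and Ccnb2, and reads that fit both places were not counted. In bulk tissue, fewer cells of a type and less RNA per cell cannot be told apart.

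**Figure D2:**
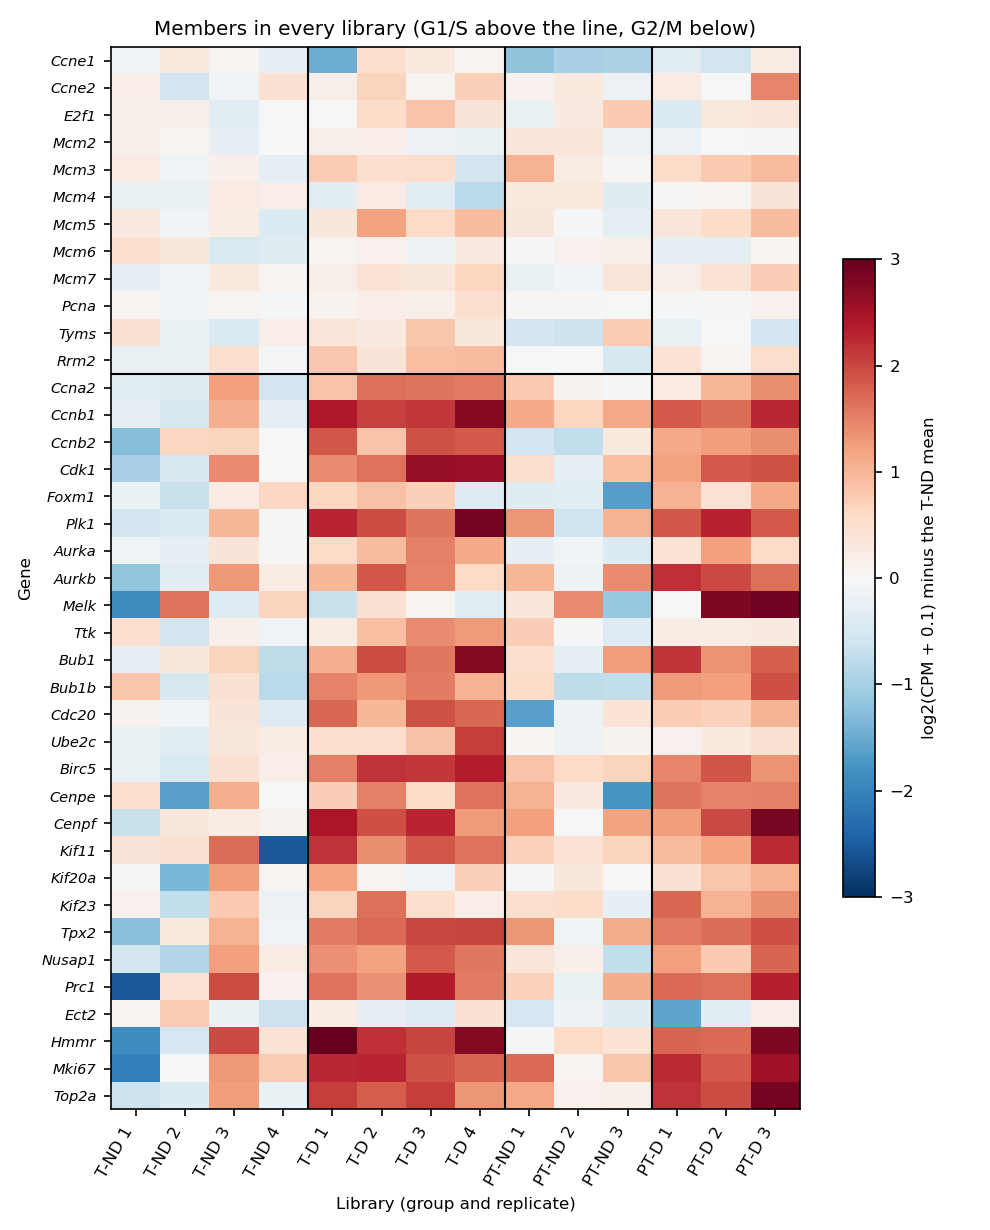
Level of each of the 39 genes (lines) in each of the 14 libraries (columns), as log2 of CPM plus 0.1 minus the mean of the T-ND libraries, from −3 (blue) to 3 (red). Above the line are the G1/S genes and below it the G2/M genes, which are mostly red in T-D and PT-D, while T-ND replicate 3 is redder than the other T-ND libraries.

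The first question was whether STZ changed these genes in term and in preterm mice. In both, G2/M genes lay higher with STZ and most G1/S genes differed little. Summed over the 27 G2/M genes, levels were 28.3, 34.1, 59.8 and 32.6 CPM in T-ND and 85.3, 84.7, 91.9 and 100.8 CPM in T-D. They were 45.6, 36.5 and 38.4 CPM in PT-ND and 74.2, 78.0 and 103 CPM in PT-D. Every STZ library was thus above every library without STZ, also within the libraries whose names end in a (28.3 to 36.5 against 74.2 to 85.3 CPM) and within the others (32.6 to 59.8 against 78.0 to 103 CPM). The means were 38.7 ± 14.3 (SD, n = 4) in T-ND, 90.7 ± 7.53 (n = 4) in T-D, 40.1 ± 4.81 (n = 3) in PT-ND and 85.0 ± 15.6 (n = 3) in PT-D. T-ND replicate 3 was the highest T-ND library for 21 of the 27 genes, and PT-D replicate 3 the highest PT-D library for 20.

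**Figure D3:**
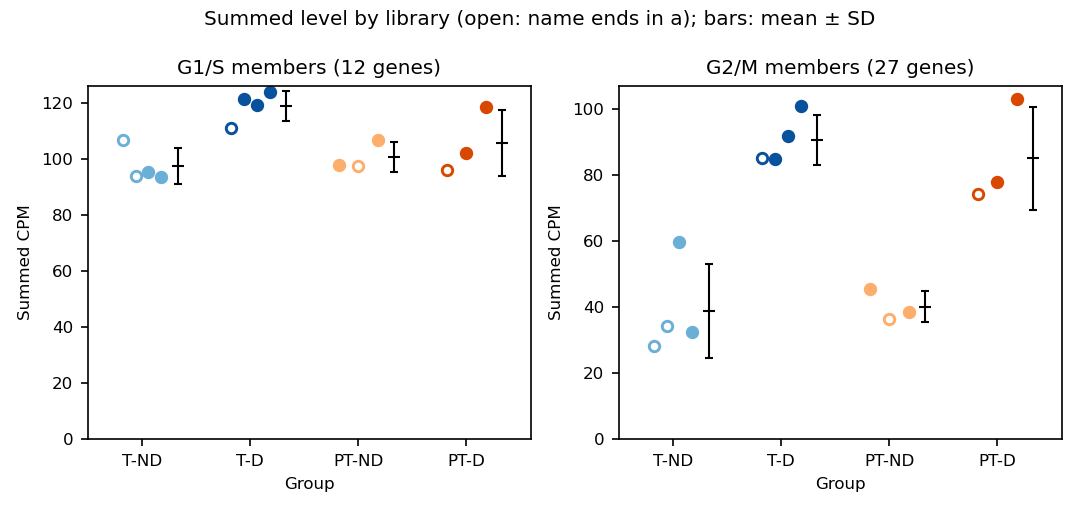
Summed level in CPM of the 12 G1/S genes and of the 27 G2/M genes in each library by group, with mean and SD, where open points are libraries whose names end in a. The G2/M sums lie between 28.3 and 59.8 CPM without STZ and between 74.2 and 103 CPM with it, whereas the G1/S sums of T-ND and PT-D overlap.

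G1/S sums were 106.8, 94.0, 95.1 and 93.5 CPM in T-ND, 111, 121.2, 119.2 and 123.6 CPM in T-D, 97.6, 97.3 and 106.8 CPM in PT-ND, and 96.0, 102 and 118.5 CPM in PT-D. T-D thus lay above T-ND in every library, by a small margin, and PT-D overlapped PT-ND. The median log2 fold change of the G2/M genes was 1.31 in T-D vs. T-ND and 1.22 in PT-D vs. PT-ND. For the G1/S genes it was 0.37 and 0.16, and for all genes tested −0.0174 and 0.0487.

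These comparisons share no library, so they can be set against each other. Of the 39 genes, 30 were higher with STZ in both (23.5% of all genes). Unadjusted p was under 0.05 with a higher level in both for 14 genes (1.16% of all genes), namely Mcm5 and 13 G2/M genes (Ccnb1, Ccnb2, Cdk1, Plk1, Aurka, Bub1b, Cdc20, Birc5, Cenpf, Nusap1, Hmmr, Mki67 and Top2a). In 15 genes every STZ library was above every library without STZ at the same gestation, in term and in preterm mice, against 0.457% of all genes. Across the 39 genes the fold changes of the 2 comparisons had a Pearson r of 0.508 and a Spearman rho of 0.552, as a description over genes that are not independent.

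**Figure D4:**
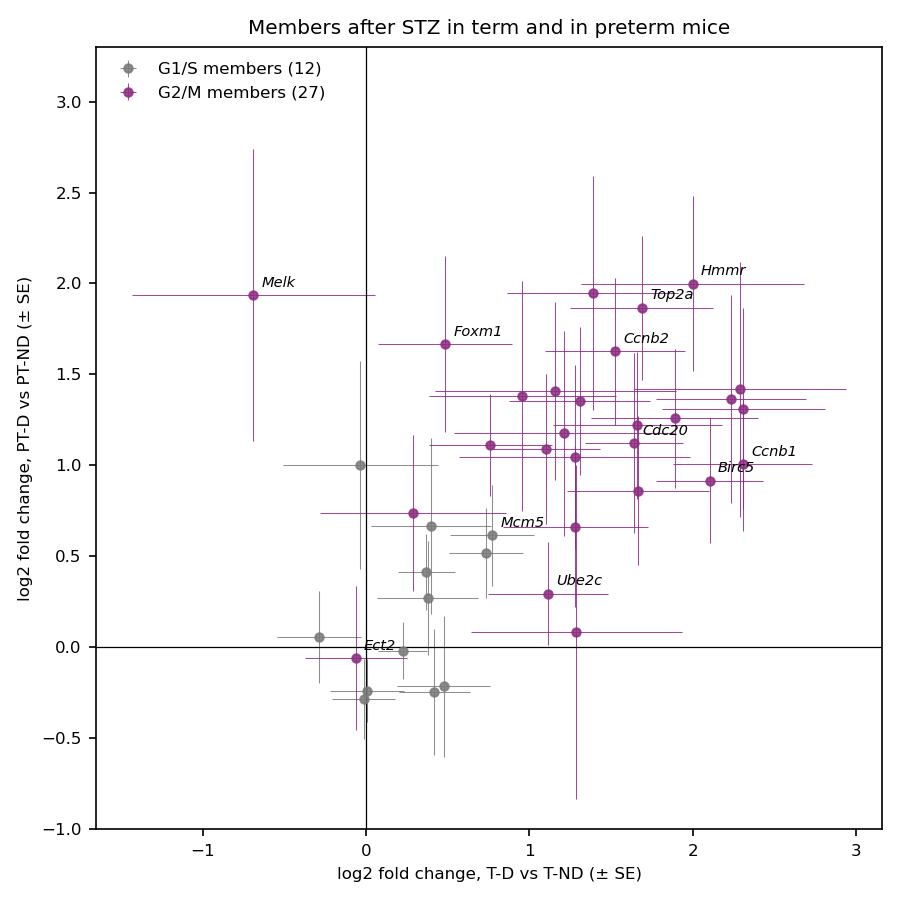
Log2 fold change with STZ in term mice (T-D vs. T-ND, horizontal) against that in preterm mice (PT-D vs. PT-ND, vertical), 1 point per gene with bars of ± 1 SE. The 30 genes higher in both lie in the upper right, and Melk lies apart at −0.69 and 1.94.

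Single genes passed the test less often. Differentially expressed genes (DEGs) are those with an adjusted p under 0.05 and a log2 fold change beyond 1, by edgeR's quasi-likelihood test with Benjamini-Hochberg adjustment over all genes. Fold changes of single genes are given on the log2 scale with their SE. In T-D vs. T-ND Birc5 was the 1 DEG among the 39 (0.0539% of all genes were higher and 0.0135% lower DEGs), and 19 genes were higher at an unadjusted p under 0.05 (5.57% of all genes), 17 of them G2/M genes. In PT-D vs. PT-ND 5 were higher DEGs (Ccnb2, Foxm1, Kif23, Hmmr and Top2a, with 2.96% of all genes higher and 1.99% lower), and 18 were higher at an unadjusted p under 0.05 (15.6%). No gene of the 39 was a lower DEG in either. With DESeq2 the counts were 12 in term and 10 in preterm mice. The edgeR count in term mice was 10 without T-ND replicate 3 and 0 without T-ND replicate 1, 2 or 4 or T-D replicate 2, 3 or 4. In preterm mice it was 0 without PT-ND replicate 2 or PT-D replicate 3, and 1 without PT-ND replicate 3.

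To use all 14 libraries at once, the term and preterm effects of STZ were averaged in a joint fit, a comparison chosen after the data had been seen. By this average 15 of the 39 genes were higher DEGs (0.801% of all genes) and none was a lower DEG (0.475%). At an unadjusted p under 0.05, 26 were higher (11.1%). All 15 were G2/M genes (Ccnb1, Ccnb2, Cdk1, Plk1, Aurka, Bub1, Bub1b, Cdc20, Birc5, Cenpf, Tpx2, Nusap1, Hmmr, Mki67 and Top2a) and 0 of the 12 G1/S genes passed, of which 3 (Mcm5, Mcm7 and Rrm2) were higher at an unadjusted p under 0.05. Birc5, Ccnb1 and Top2a stayed DEGs whichever library was left out. The count ranged from 3 without PT-ND replicate 2 to 19 without T-ND replicate 3. It was 5 to 9 without PT-D replicate 1, 2 or 3, PT-ND replicate 3, T-D replicate 2 or 3, or T-ND replicate 1, 2 or 4. DESeq2 gave 16.

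Other RNA moved with these groups. The 10 markers of injured and repairing tubule summed to 2009 to 2799 CPM in T-ND, 2553 to 4481 in T-D, 2235 to 2284 in PT-ND and 3525 to 4162 in PT-D. Spp1 and Clu made up most of these sums, and the other 8 markers summed to 253.7 to 484 CPM in T-ND, 351 to 651 in T-D, 304 to 361 in PT-ND and 447 to 686 in PT-D. Among those 8 was Havcr1, which codes for the injury marker KIM-1, with 130.4, 122, 64.5 and 2.82 CPM in T-ND and 4.03, 5.06, 1.96 and 9.99 in T-D, against 5.72, 4.08 and 5.99 in PT-ND and 4.82, 79.1 and 64.9 in PT-D. In term mice 3 of 4 T-ND libraries were thus above every T-D library (log2 fold change −3.97 ± 0.85, adjusted p = 0.122). Leukocyte markers (18 of 18 with a count in some library) summed to 131 to 183, 99.1 to 228.5, 166 to 170 and 168 to 275 CPM in the same order of groups. For 8 of 10 erythroid markers the sums were 71.0 to 556, 109 to 1011, 71.1 to 158.5 and 123 to 286.5 CPM. Endothelial markers summed to 497 to 662 CPM in PT-D and 321 to 531 in PT-ND, and to 229 to 432 in T-D and 409 to 432.5 in T-ND. Podocyte markers summed to 521 to 682 CPM in PT-D, 298 to 530 in PT-ND, 177 to 534.5 in T-D and 255 to 389 in T-ND. Fibroblast and pericyte markers summed to 353 to 438 CPM in PT-D, 197 to 359 in PT-ND, 188 to 328 in T-D and 223 to 298 in T-ND. Proximal tubule markers summed to 7057 to 12570 CPM in PT-D and 14810 to 24180 CPM in PT-ND, a gap that 1 gene carried. Without Kap the other 7 summed to 6781 to 8452 CPM in PT-D and 8104 to 8938 CPM in PT-ND, which overlapped. Loop, distal tubule and collecting duct markers summed to 4181 to 5244 CPM in T-ND, 2941 to 4187 in T-D, 3149 to 4490 in PT-ND and 2093 to 4906 in PT-D. Of these 10 genes, 5 were lower and 0 higher in T-D vs. T-ND at an unadjusted p under 0.05 (6.20% and 5.57% of all genes). In PT-D vs. PT-ND 2 were lower and 1 higher (13.5% and 15.6%). The part of all these cells in the results was not tested.

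Among the genes of the G1/S switch none was a DEG. E2f1, the transcription factor that opens S phase, had 2.53, 2.57, 1.81 and 2.23 CPM in T-ND, 2.30, 3.37, 4.18 and 2.99 in T-D, 1.96, 2.74 and 3.99 in PT-ND and 1.67, 2.83 and 2.97 in PT-D. Ccne2 (cyclin E2) had 1.35, 0.768, 1.09 and 1.65 CPM in T-ND, 1.34, 1.93, 1.24 and 1.97 in T-D, 1.29, 1.45 and 1.03 in PT-ND and 1.40, 1.19 and 3.40 in PT-D, the last value being the highest of the 14. The groups overlapped for both genes, and the log2 fold change with STZ, averaged, was 0.14 ± 0.23 (SE) for E2f1 and 0.54 ± 0.29 for Ccne2. Ccne1 was −0.04 ± 0.48 in term and 1.00 ± 0.57 in preterm mice (adjusted p = 0.988 and 0.277).

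None of the 6 helicase subunits, which work as 1 complex, was a DEG. Mcm5 (GRCm39 chr8:75836140-75856231) had 5.35, 4.20, 5.13 and 3.29 CPM in T-ND and 5.65, 10.4, 6.59 and 8.53 in T-D, and 5.62, 4.31 and 3.65 in PT-ND and 5.73, 6.51 and 8.58 in PT-D. It was the only subunit whose groups did not overlap in both comparisons, and the averaged log2 fold change was 0.70 ± 0.19 (adjusted p = 0.0540). Mcm6, the most abundant per kilobase, had 23.9, 21.3, 12.2 and 13.1 CPM in T-ND, 17.8, 18.4, 15.1 and 20.2 in T-D, 16.6, 18.5 and 18.8 in PT-ND and 13.8, 13.8 and 17.9 in PT-D. These overlapped, with an average of −0.11 ± 0.15. Mcm3 had 3.88, 2.98, 3.63 and 2.71 CPM in T-ND, 5.60, 4.70, 4.78 and 2.16 in T-D, 6.81, 3.86 and 3.37 in PT-ND and 4.91, 5.65 and 6.36 in PT-D, where T-D replicate 4 was the lowest of all. Only PT-D and T-ND did not overlap, at 0.77 ± 0.23 (adjusted p = 0.0842). Averaged over STZ, Mcm7 was 0.40 ± 0.14, Mcm2 −0.14 ± 0.14 and Mcm4 −0.11 ± 0.18.

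In DNA synthesis, Pcna, the clamp, had 16.9, 15.2, 17.3 and 15.7 CPM in T-ND, 17.4, 18.6, 18.1 and 22.7 in T-D, 16.6, 16.8 and 16.3 in PT-ND and 15.8, 15.5 and 17.7 in PT-D. T-D replicate 4 was the highest of the 14 and the others lay between 15.2 and 18.6 CPM, and the averaged log2 fold change with STZ was 0.11 ± 0.10. Rrm2, the regulated subunit of the ribonucleotide reductase that makes deoxynucleotides, had 5.64, 5.69, 9.32 and 6.38 CPM in T-ND, 11.6, 8.67, 12.4 and 12.8 in T-D, 6.70, 6.54 and 4.68 in PT-ND and 9.02, 7.03 and 9.65 in PT-D. The preterm groups did not overlap, the term groups did, and the average was 0.63 ± 0.16 (adjusted p = 0.0490), under the fold threshold of a DEG. Tyms, the thymidylate synthase, averaged 0.09 ± 0.22. Of Rrm2, 43.3% of the exon bases are shared with another annotated gene, and of Pcna 20.8%, whose reads unstranded counting cannot tell apart.

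All 5 of the mitotic cyclins, their kinase and their transcription factor had averaged log2 fold changes of 0.98 to 1.66. Ccnb1 (cyclin B1, chr13:100915153-100923116) had 0.529, 0.452, 1.55 and 0.531 CPM in T-ND and 4.03, 3.13, 3.28 and 5.03 in T-D, with no overlap, and 1.60, 1.12 and 1.60 in PT-ND and 2.66, 2.38 and 3.64 in PT-D, again with none. The log2 fold change was 2.31 ± 0.43 in term (adjusted p = 0.0821) and 1.01 ± 0.37 in preterm mice (adjusted p = 0.0969), and only the average passed (1.66 ± 0.29, adjusted p = 0.00938).

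Ccnb2, whose promoter is shown above, had 0.470, 2.03, 2.12 and 1.28 CPM in T-ND, 4.93, 2.41, 5.12 and 4.84 in T-D, 0.825, 0.727 and 1.60 in PT-ND and 2.98, 3.20 and 3.56 in PT-D. T-D replicate 2 was the low T-D library, and still above T-ND. The gene (chr9:70314966-70328874) rose by 1.63 ± 0.40 (log2) in preterm mice (adjusted p = 0.0265) and was 1.52 ± 0.43 in term mice (adjusted p = 0.230). Foxm1 (chr6:128339518-128353147), a transcription factor of late cell cycle genes, had 1.12, 0.768, 1.55 and 2.02 CPM in T-ND, 2.07, 2.47, 2.19 and 0.954 in T-D, 0.980, 1.01 and 0.342 in PT-ND and 2.75, 1.79 and 2.93 in PT-D. Its preterm groups stood apart, at 1.67 ± 0.48 (adjusted p = 0.0457), and its term groups overlapped, at 0.48 ± 0.41 (adjusted p = 0.667). The DEG call of Foxm1 held in 1 of the 6 leave-one-out fits, and that of Ccnb2 in 2. Cdk1, the kinase, averaged 1.58 ± 0.36 (adjusted p = 0.0317), and Ccna2 (cyclin A2) 0.98 ± 0.33 (adjusted p = 0.107).

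Of the mitotic and checkpoint kinases, Plk1, which acts at entry into mitosis and at cytokinesis, had 0.235, 0.271, 0.880 and 0.372 CPM in T-ND, 2.30, 1.81, 1.39 and 3.50 in T-D, 1.13, 0.224 and 0.913 in PT-ND and 1.67, 2.34 and 1.66 in PT-D. Neither pair of groups overlapped, and the averaged log2 fold change was 1.82 ± 0.38 (adjusted p = 0.0232). Aurka, a kinase of the spindle poles, had 1.12, 0.993, 1.66 and 1.28 CPM in T-ND, 1.90, 2.47, 3.69 and 2.86 in T-D, 1.03, 1.17 and 0.913 in PT-ND and 1.67, 3.05 and 1.94 in PT-D. Here too neither pair overlapped, and the average was 1.10 ± 0.24 (adjusted p = 0.0274). Aurka shares 38.6% of its exon bases with other genes. The checkpoint kinase genes Bub1 and Bub1b averaged 1.87 ± 0.47 and 1.68 ± 0.40 (adjusted p = 0.0444 and 0.0378), at levels of 0.0531 to 1.65 CPM over all libraries.

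Melk, a kinase gene that is often high in dividing progenitor cells, differed widely among the 3 PT-D libraries. It had 0.0587, 1.76, 0.363 and 0.850 CPM in T-ND, 0.280, 0.723, 0.527 and 0.382 in T-D, 0.670, 1.51 and 0.171 in PT-ND and 0.496, 4.05 and 4.47 in PT-D. PT-D replicates 2 and 3 were the highest of all, with 109 and 113 counts, and PT-D replicate 1 lay among the other groups with 11. The log2 fold change was −0.69 ± 0.74 in term mice (adjusted p = 0.742) and 1.94 ± 0.80 in preterm mice (adjusted p = 0.137). Ttk averaged 0.69 ± 0.47 at 0.0903 to 0.640 CPM, and Aurkb, whose promoter is shown above, 1.20 ± 0.45 (adjusted p = 0.445 and 0.151).

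Cdc20, which activates the anaphase promoting complex, had 1.76, 1.54, 2.18 and 1.22 CPM in T-ND, 5.60, 3.37, 6.48 and 5.66 in T-D, 0.464, 1.45 and 2.22 in PT-ND and 2.84, 2.72 and 3.44 in PT-D. The T-D libraries were the highest and overlapped PT-D only through T-D replicate 2. The averaged log2 fold change was 1.39 ± 0.28 (adjusted p = 0.0198). Ube2c, the ubiquitin-conjugating enzyme of the complex, was 1.12 ± 0.37 in term and 0.30 ± 0.28 in preterm mice (adjusted p = 0.289 and 0.537), and its highest library was T-D replicate 4 with 14.2 CPM.

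Birc5 (survivin, the chromosomal passenger protein, chr11:117740040-117746581) was a DEG in term mice. It had 0.822, 0.677, 1.35 and 1.12 CPM in T-ND, 2.91, 4.64, 4.48 and 5.28 in T-D, 1.80, 1.51 and 1.60 in PT-ND and 2.84, 3.83 and 2.61 in PT-D. STZ libraries lay above those without STZ in term and in preterm mice, and PT-ND lay above T-ND. The log2 fold change was 2.10 ± 0.33 in term mice (4.29-fold, adjusted p = 0.0486) and 0.92 ± 0.34 in preterm mice (adjusted p = 0.104). In the average it had the smallest adjusted p of the 39 genes (0.00305, log2 fold change 1.52 ± 0.22). The call in term mice held in 2 of the 8 leave-one-out fits.

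Cenpf (chr1:189372752-189420315), which codes for a protein of the outer kinetochore, had 0.176, 0.452, 0.414 and 0.372 CPM in T-ND, 2.30, 1.57, 2.03 and 0.954 in T-D, 0.928, 0.335 and 0.913 in PT-ND and 0.947, 1.64 and 3.04 in PT-D. PT-D replicate 1 lay just above the highest PT-ND library. The averaged log2 fold change was 1.81 ± 0.36 (adjusted p = 0.0191). Cenpe, a kinesin of the kinetochore, averaged 1.18 ± 0.46 (adjusted p = 0.165).

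Of the 8 spindle and cytokinesis genes, 3 were DEGs in the average (Hmmr, Nusap1 and Tpx2). Kif23 (chr9:61823187-61854074), a kinesin of the central spindle, had 4.64, 2.53, 7.41 and 3.77 CPM in T-ND, 6.83, 13.6, 6.18 and 4.90 in T-D, 6.03, 6.32 and 3.59 in PT-ND and 14.2, 8.93 and 11.4 in PT-D. The preterm groups were apart (1.11 ± 0.28, adjusted p = 0.0271) and the term groups overlapped (0.76 ± 0.38, adjusted p = 0.457). Hmmr (chr11:40592167-40624288), a spindle-associated hyaluronan receptor, had 0.0587, 0.316, 2.23 and 0.691 CPM in T-ND, 4.70, 2.59, 2.30 and 3.88 in T-D, 0.464, 0.783 and 0.684 in PT-ND and 1.89, 1.82 and 4.03 in PT-D. In T-ND it ranged from 1 library near the limit of detection to replicate 3, just below the lowest T-D library. It rose by 2.00 ± 0.48 (log2) in preterm mice (adjusted p = 0.0233), and the average was 2.01 ± 0.48.

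Ect2, the exchange factor that starts cleavage, is the most abundant of the spindle and cytokinesis genes per kilobase. It had 6.99, 11.3, 5.75 and 4.25 CPM in T-ND, 7.78, 5.42, 5.09 and 9.16 in T-D, 4.64, 5.98 and 5.13 in PT-ND and 2.16, 5.32 and 7.59 in PT-D, and all groups overlapped. Its averaged log2 fold change was −0.05 ± 0.27, the only value below 0 among the G2/M genes. The promoter window of Ect2 holds all 3 motifs, and a link between motifs and fold changes was not tested. Nusap1 (1.34 ± 0.32) and Tpx2 (1.27 ± 0.32), which bundle and seed spindle microtubules, were DEGs in the average, with adjusted p = 0.0388 and 0.0432. The kinesin genes Kif11 (1.17 ± 0.49) and Kif20a (0.52 ± 0.38) and the midzone gene Prc1 (1.29 ± 0.51) were not. Of Kif20a, 61.5% of the exon bases are shared with other genes.

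Mki67, which codes for the proliferation antigen Ki-67, had 0.235, 1.31, 3.37 and 2.29 CPM in T-ND, 6.66, 6.75, 5.16 and 4.58 in T-D, 4.49, 1.40 and 2.40 in PT-ND and 6.54, 4.91 and 7.91 in PT-D. The average was 1.45 ± 0.38 (adjusted p = 0.0490). Top2a (chr11:98883769-98915062), the topoisomerase that untangles sister chromosomes, had 0.705, 0.858, 2.90 and 1.01 CPM in T-ND, 5.26, 4.34, 5.20 and 3.05 in T-D, 2.73, 1.29 and 1.31 in PT-ND and 5.55, 4.83 and 9.17 in PT-D. Within term and within preterm mice, STZ libraries did not overlap those without STZ in either gene. T-ND replicate 3 and PT-ND replicate 1 were high within their groups in both genes. Top2a rose by 1.87 ± 0.40 (log2) in preterm mice (3.65-fold, adjusted p = 0.0153), a call held in 3 of the 6 leave-one-out fits, and was 1.69 ± 0.44 in term mice (adjusted p = 0.190).

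**Figure D5:**
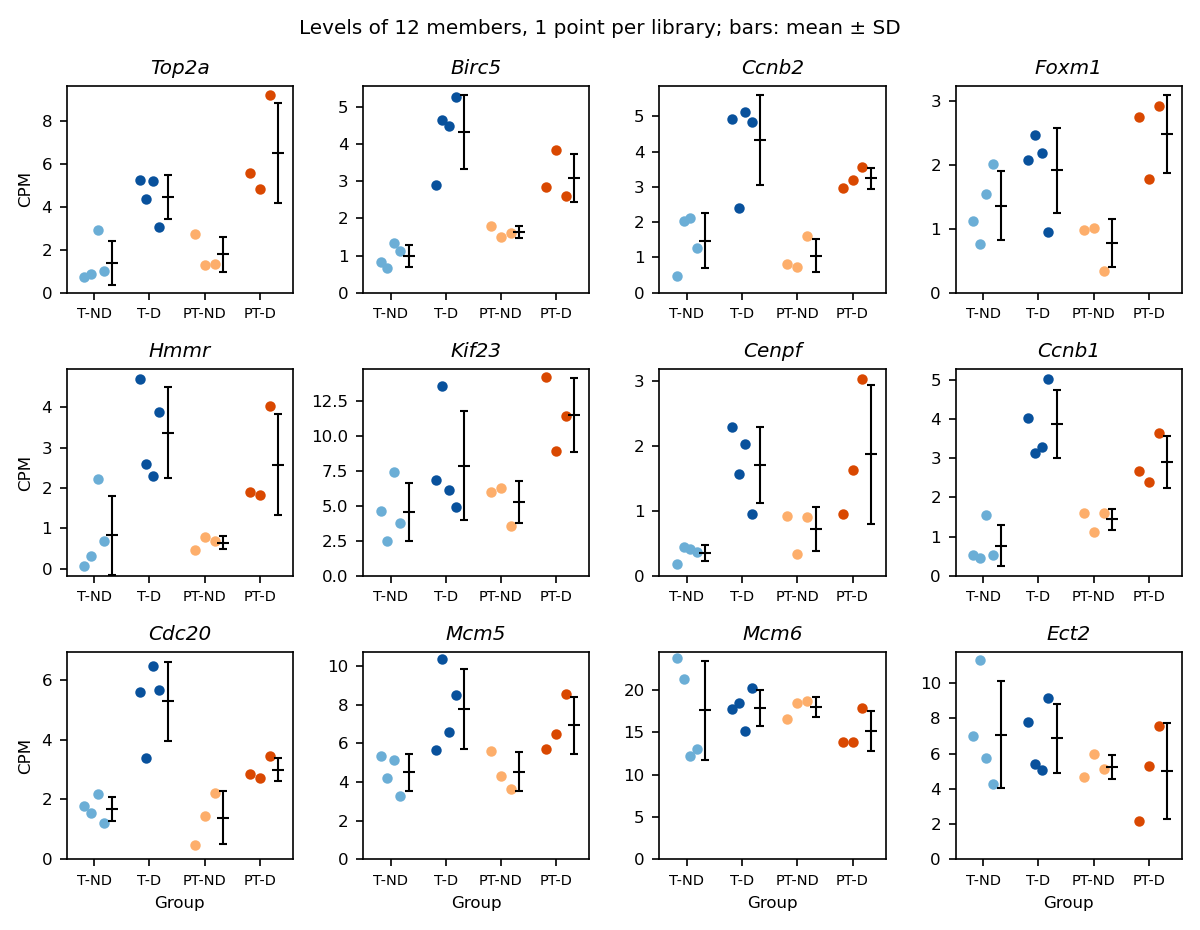
Levels of 12 of the genes in CPM, with 1 point per library in the 4 groups and the mean ± SD of each group. For Birc5, Ccnb1, Ccnb2, Cdc20, Cenpf, Hmmr, Mcm5 and Top2a the points of T-D lie above those of T-ND and those of PT-D above those of PT-ND, whereas Ect2 and Mcm6 overlap.

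The second question was the combined effect of preterm birth and STZ, in PT-D vs. T-ND, which uses libraries already compared above. Birc5, Cenpf and Top2a were higher DEGs (0.995% of all genes), at 1.63 ± 0.34, 2.37 ± 0.51 and 2.24 ± 0.48 (adjusted p = 0.0402, 0.0444 and 0.0434), and no gene of the 39 was a lower one (0.453%). At an unadjusted p under 0.05, 20 genes were higher (12.6%) and 17 of these were G2/M genes. Plk1 (2.08 ± 0.49), Ccnb1 (1.90 ± 0.46) and Kif23 (1.33 ± 0.33) had adjusted p-values of 0.0533, 0.0560 and 0.0584. The median was 1.35 over the G2/M genes, 0.13 over the G1/S genes and 0.0289 over all genes. The count of DEGs was 12 without T-ND replicate 3, 1 without PT-D replicate 1, and 0 without T-ND replicate 1, 2 or 4 or PT-D replicate 2 or 3. DESeq2 gave 10.

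Preterm birth alone and preterm birth among diabetic mice gave few differences. In PT-ND vs. T-ND none of the 39 was a DEG by edgeR or DESeq2, against 0.0719% of all genes higher and 0.00899% lower. At an unadjusted p under 0.05 there were 0 higher (5.55% of all genes) and 1 lower (5.15%), Ccne1 at −1.21 ± 0.47 (adjusted p = 0.414). The medians over G1/S and G2/M genes were both 0.03. The groups stood apart for Birc5, higher in PT-ND, and Ccne1, lower in PT-ND, against 5.48% and 5.54% of all genes.

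In PT-D vs. T-D there was likewise no DEG by edgeR, against 0.135% of all genes higher and 0.0583% lower, while DESeq2 called Melk. At an unadjusted p under 0.05 Melk was higher (11.4% of all genes) and Tyms, Cdc20 and Ube2c were lower (10.9%). Melk was 2.63 ± 0.64 (adjusted p = 0.0799), with the 2 highest PT-D libraries described above, and was a DEG without PT-D replicate 1. Tyms had 11.5, 13.5 and 8.97 CPM in PT-D, all below the lowest T-D library (16.1 CPM) (10.6% of all genes were lower without overlap, −0.72 ± 0.22, adjusted p = 0.103).

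Whether STZ acted differently in preterm and term mice was asked by the interaction. None of the 39 was a DEG by edgeR, against 1.98% of all genes higher and 2.46% lower. At an unadjusted p under 0.05, Melk was higher (2.61 ± 1.20, with 12.2% of all genes) and Birc5 (−1.21 ± 0.44) and Ccnb1 (−1.32 ± 0.56) were lower (12.3%), which means a smaller rise in preterm mice, with adjusted p = 0.192, 0.103 and 0.162. DESeq2 called Birc5, and edgeR called Ccnb1 without T-ND replicate 3. A Foxm1 or Kif23 called in preterm mice only is thus not shown to differ between preterm and term mice.

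The genes also followed each other from library to library to different degrees. Over the 14 libraries, Pearson's r was taken between a gene's log2 level and the median of the other G2/M genes, each centred on its mean. This r had a median of 0.832 among the G2/M genes, from −0.132 for Ect2 to 0.951 for Cdk1 and Ccnb1. Melk was at 0.213. Among the G1/S genes the median was 0.299. Rrm2 (0.817), Mcm7 (0.808) and Mcm5 (0.771) were most like the G2/M genes, and Mcm2 (−0.393), Mcm6 (−0.301) and Mcm4 (−0.103) least. These values describe genes measured in the same libraries, so that group and depth enter all of them. With each library taken as its deviation from the group mean, the median r was 0.484 among the G2/M genes and 0.158 among the G1/S genes, and Rrm2 was at 0.728, Mcm7 at 0.587 and Mcm5 at 0.259.

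Other genes of the cell cycle were taken from 11 lists. Beside their counts at an unadjusted p under 0.05 stand the shares of all genes, which were 5.57% higher and 6.20% lower in term mice and 15.6% higher and 13.5% lower in preterm mice. The kinetochore and checkpoint list had 8 of 20 genes higher with STZ in term and 5 in preterm mice, and the list of further spindle, kinesin and cytokinesis genes 8 of 20 in each, with none lower in either list and medians of the average of 0.64 and 1.01. Of the first, Nuf2 and Knl1 were DEGs in the average (1.72 ± 0.34 and 1.72 ± 0.42, adjusted p = 0.0180 and 0.0393). Of the second, Gtse1, Kif22 and Ckap2l with 1 more were (1.79 ± 0.38, 1.36 ± 0.31 and 1.58 ± 0.39 for those named, adjusted p = 0.0243, 0.0311 and 0.0413). Gtse1, which restrains p53 in G2, was a DEG in preterm mice (2.20 ± 0.51, adjusted p = 0.0201).

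Among 17 CDC25, WEE1 and other mitotic regulators 6 were higher and 1 lower in term mice, and 5 higher and 1 lower in preterm mice (median of the average 0.59). Cdca3, which helps to degrade WEE1, was a DEG in the average (1.12 ± 0.25, adjusted p = 0.0310), but its interaction also passed (−1.84 ± 0.50, adjusted p = 0.0440), with 2.02 ± 0.35 in term and 0.20 ± 0.37 in preterm mice. Condensin and cohesin genes had 1 of 14 higher and 1 lower in term mice, and 6 higher and 1 lower in preterm mice (median of the average 0.38). Ncaph, a condensin subunit, was a DEG in the average (1.64 ± 0.36, adjusted p = 0.0277). Of 13 genes of the DNA damage checkpoint and repair 1 and 3 were higher and none lower, near the shares of all genes. Of 7 antiproliferative genes 3 were higher in term mice, and 3 higher and 1 lower in preterm mice.

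The lists of earlier steps had medians of the average close to the 0.0079 of all genes, at 0.00 for 9 G1 cyclins and CDKs, −0.02 for 17 pocket protein, E2F and DREAM genes, −0.02 for 19 licensing and firing genes and 0.01 for 24 replication enzymes. These medians join genes that went both ways. At an unadjusted p under 0.05, 0 G1 cyclins and CDKs were higher and 0 lower in term mice, and 3 higher and 2 lower in preterm mice. Pocket protein, E2F and DREAM genes had 0 and 2 in term mice, and 3 and 1 in preterm mice. Licensing and firing genes had 1 and 0, and 3 and 0. For the replication enzymes the average joined values of unlike sign. Their median was 0.30 in term mice, with 21 of 24 above 0, 3 higher and 1 lower at an unadjusted p under 0.05. In preterm mice it was −0.19, with 15 of 24 below 0, 3 higher and 7 lower. The median of their interaction was −0.45, with 2 higher and 10 lower at an unadjusted p under 0.05 (12.2% and 12.3% of all genes), and none was a DEG of the interaction. DEGs in preterm mice were Rbl1 (p107, 1.15 ± 0.23, adjusted p = 0.0121), Cdc7, a kinase that fires origins (2.03 ± 0.51, adjusted p = 0.0271) and Uhrf1, which maintains DNA methylation behind the fork (1.42 ± 0.34, adjusted p = 0.0241).

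Among the 7 inhibitors of cyclin-dependent kinases, Cdkn1a (p21), a p53 target that stops the cycle, moved the same way as the mitotic genes. It had 47.0, 28.1, 145 and 61.7 CPM in T-ND, 161, 303, 213 and 235 in T-D, 153, 95.7 and 108 in PT-ND and 251, 182 and 234 in PT-D, and neither pair of groups overlapped. T-ND replicate 3, high in most G2/M genes, was also the highest T-ND library here. The averaged log2 fold change was 1.30 ± 0.28 (adjusted p = 0.0246). In preterm mice it was 0.91 ± 0.20 (adjusted p = 0.0178), under the fold threshold, and in term mice 1.68 ± 0.41 (adjusted p = 0.171).

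None of the other inhibitors was a DEG in the average. Cdkn1b (p27) was −0.38 ± 0.21 in term and 0.54 ± 0.14 in preterm mice (adjusted p = 0.497 and 0.0349). Cdkn2c (p18) had 16.0, 15.3, 25.5 and 19.5 CPM in T-D and 11.2, 10.8 and 8.46 in PT-D, and its interaction passed at −1.11 ± 0.29 (adjusted p = 0.0382). Cdkn1c, Cdkn2b and Cdkn2d averaged 0.28 ± 0.15, 0.34 ± 0.30 and 0.02 ± 0.21 and were no DEGs. Cdkn2a, a marker of senescent cells, had 0 to 12 counts per library, with 5 or fewer in all but PT-D replicates 2 and 3, and no fold is given.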

How the data were processed

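Whole kidneys of 14 female mice were sequenced from un-stranded, poly-A selected libraries. The authors aligned reads with STAR to GRCm39 and deposited, for each gene, the raw counts of reads with a single mapping place, of which the unstranded column was used. Reads on several genes (6.86% to 8.09%) or on none (2.39% to 5.42%) stayed out of the library sizes, and reads mapping to several places were not counted. Overlapping and antisense genes cannot be told apart. Symbols, lengths and starts are from GENCODE release 39, which 56236 of 56980 IDs matched without their version. The authors used an earlier release.

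Genes with a total above 10 counts (22339) were tested with edgeR 4.0.16 (R 4.3.3), TMM scaling, the two-sided quasi-likelihood test and Benjamini-Hochberg adjustment over all genes. Pairs were fitted without the other groups, and the interaction and the average on all 14. Figures add 0.1 CPM before the log. Mice are separate, and p-values measure the spread between them.

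The members, lists and tests were chosen with earlier results of these data known. Values in every library are given for members that were DEGs in a comparison other than the average. In each role they are also given for the most abundant per kilobase and that with the smallest p in PT-D vs. T-ND. Mcm5, Melk, Tyms, Kap, Havcr1 and other genes were named after their values were seen, apart from the inhibitors and the DEGs of the pathway lists. Alternatives were RLE or upper quartile scaling, DESeq2 1.42.0, filterByExpr, no filter, all 14 libraries in a joint fit, a replicate block, the library-name letter as covariate and each library left out. Scripts were tested on simulated data. Male libraries, qPCR and histology were not analysed here.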

Additional observations from a re-analysis of the deposited data

Results flagged for a closer look

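In groups of 4 libraries, 1 library stood apart from the other 3 by Dixon's test for 3 genes and 1 summary, out of 44 groups tested. Chance alone does this in about 5% of groups, or 1 in 20. Ccnb2 was low in T-D replicate 2 (2.41 CPM). Top2a (2.90 CPM) and Ccnb1 (1.55 CPM) were high in T-ND replicate 3. The median over the 39 genes of the log2 ratio to the T-ND mean was 0.37 in that library, also apart from the other 3.

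By the interaction test in edgeR, STZ had unlike effects in preterm and term mice for 6 of the 167 genes of the pathway lists. These are 1.80% higher and 1.80% lower, no more than the 1.98% and 2.46% of all genes, so the count says nothing about the lists. Klf4, a transcription factor that restrains proliferation, was 1.54 ± 0.33 (adjusted p = 0.0244, 0.0215 to 0.0656 with a library left out). Cdc7 was 2.28 ± 0.62 (adjusted p = 0.0427, 0.0436 to 0.116), with 2.03, 1.23 and 1.98 CPM in PT-D against 0.309 to 0.744 CPM in all other libraries. Smc3, a cohesin subunit, was 1.12 ± 0.22 (adjusted p = 0.0207, 0.0124 to 0.0712). The effect was smaller or opposite in preterm mice for Cdca3 (−1.84 ± 0.50, adjusted p = 0.0440, 0.0313 to 0.134), Cks2 (−1.15 ± 0.32, adjusted p = 0.0443, 0.0293 to 0.138) and Cdkn2c (−1.11 ± 0.29, adjusted p = 0.0382, 0.0308 to 0.117).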

How the results depend on the processing

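No gene that was a DEG changed direction under the alternatives run, and the medians over the 39 genes kept their sign with a library left out, except that of PT-ND vs. T-ND (−0.02 to 0.25). The counts of DEGs among the 39 genes depended on them. In PT-D vs. T-ND the 3 became 10 with DESeq2, 5 with filterByExpr, 6 with no filter, 5 with the library-name letter, 0 with a replicate block and 0 to 12 with a library left out. In T-D vs. T-ND the 1 became 12 with DESeq2, 0 with filterByExpr, 3 with no filter, 2 in the joint fit, 0 with the block and 0 to 10 with a library left out. In PT-D vs. PT-ND the 5 became 10 with DESeq2, 10 with no filter, 3 in the joint fit, 8 with the block and 0 to 7 with a library left out. In PT-D vs. T-D the 0 became 1 with DESeq2, 1 with no filter and 0 to 1 with a library left out, and in the interaction 1 with DESeq2 and 0 to 1. The average gave 10 with the block and 3 to 19 with a library left out. The median log2 fold change over the 39 genes was 0.728 to 1.33 in PT-D vs. T-ND and −0.505 to −0.0385 in the interaction with a library left out. The cause was not tested. Same-numbered libraries did not deviate together (median r of 19 pairs −0.0955, 2 over 0.1). With 3 or 4 libraries in a group, this cannot exclude that some of the mice were paired or littermates. With TTTGAA alone as the CHR, 14 G2/M and 2 G1/S promoters matched. Counts near 3 per library, as in Ttk and Bub1, limit what can be seen.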
